A study of Mus musculus with 20 samples.

Results

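Collagen genes encode the chains of the main structural proteins of connective tissue, and their chromatin was followed here in mouse blood progenitors. ATAC-seq marks accessible DNA by transposase insertion. The cells were Lin-cKit+Sca1+ (LSK) cells sorted from bone marrow, a gate that holds haematopoietic stem cells and early progenitors. A peak was taken as a collagen peak when its nearest protein-coding gene in the mouse mm10 assembly had a symbol made of Col, a number, the letter a and a number. By that rule 401 of 125343 peaks (0.32%) belonged to collagen genes, and 43 of the 44 such genes had at least 1 peak, with Col10a1 the exception. The group had been proposed from its lower accessibility in Idh2 R172K at Col5a1 and Col6a3, so the members were selected on Idh2 R172K counts against WT, and every Idh2 R172K value below is a description. Peaks past edgeR's threshold in that contrast are counted as called, with the share over all peaks beside the count, but no p-value is given and nothing is read from the counts.

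All mice were C57Bl/6J, aged 3 to 4 months, with 4 libraries per genotype and a pool of 2 mice behind each library. WT controls were +/+ mice that carried Vav-Cre, a recombinase driven by a promoter active throughout blood formation. The 3 Idh groups carried the same Vav-Cre with 1 conditional allele each, Idh1 LSL-R132H/+, Idh2 LSL-R140Q/+ or Idh2 LSL-R172K/+, in which the loxP-flanked stop has to be removed before the mutant enzyme is made. Tet2 KO mice were Tet2-/-, and no Cre is named in their genotype, so the loss of Tet2 and the absence of Vav-Cre cannot be told apart in that comparison. The mutant Idh enzymes make 2-hydroxyglutarate, a metabolite that inhibits dioxygenases such as Tet2, which oxidises methylated cytosine.

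The libraries held between 10502052 and 27890340 counts in peaks. Of 31 peaks assigned to Tet2, 0 passed the test in Tet2 KO, so the peaks do not check the knockout label. Genes that mark LSK cells were open, with peaks at 12 of 12 listed genes, Kit and Cd34 among them. The sum over their 409 peaks was 2456 to 2553 CPM (counts per 1000000 counts in peaks, on TMM-scaled library sizes) in WT, 2478 to 2534 in Tet2 KO and 2588 to 2706 in Idh2 R172K, where no library overlapped WT, and its part in the Idh2 R172K values was not tested. Listed stromal and endothelial genes also had peaks, 14 of 15 (Ibsp had none), and the sum over their 166 peaks lay between 721 and 761 CPM in WT, 725 and 754 in Idh1 R132H, 738 and 767 in Idh2 R140Q, 754 and 782 in Idh2 R172K and 757 and 801 in Tet2 KO. Its mean was 737 ± 17.3 CPM (SD, n = 4) in WT, 772 ± 12.8 in Idh2 R172K and 770 ± 20.6 in Tet2 KO, with libraries that overlapped WT, and its part in the results below was not tested. In a sorted population, fewer cells of a type and less open chromatin per cell cannot be told apart. The 20 libraries fell into 10 with low (3.83 to 4.67 CPM) and 10 with high (23.9 to 29.9 CPM) accessibility at Xist, both kinds present in every genotype.

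Collagen chains wind into a helix with a glycine at every turn, are hydroxylated in the endoplasmic reticulum and are then assembled outside the cell. Fibrillar collagens form banded fibres, FACIT collagens coat those fibres, type IV chains form the sheet of basement membranes, type VI forms beaded filaments, and membrane-spanning collagens stay anchored in the cell surface. In bone marrow they are made mostly by osteoblasts, reticular stroma and vessel walls, and LSK cells meet them through integrins and other receptors. Accessibility at such genes in blood progenitors is a measure of chromatin and not of collagen production.

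Collagen start sites differed in CpG content, and accessibility in WT went with it. RefSeq start-site windows (GRCm38.p6, 250 bases before to 50 after the start) were at hand for 35 collagen genes, with 38 windows in all. A peak lay over 27 of the 38 (71.1%), against 51.1% of all 32851 windows. The Col4a1 and Col4a2 windows share a peak, as do the windows of Col6a2. The full set of windows covers 27025 genes, more than the 21887 protein-coding genes used to assign peaks. It is thus a wider kind of set than the collagen windows, here and for the motif shares below. Below 10 CpGs, 6 of 16 collagen windows held a peak, from 10 to 19 it was 12 of 13, and at 20 or more it was 9 of 9. The shares over all genes in those bins were 20.2%, 81.7% and 97.4%. Collagen start-site peaks were nonetheless weak, with a median of 4.45 CPM in WT against 25.8 CPM for all start-site peaks. The 5 windows below are shown because the results return to them. Each is printed 5′ to 3′ on the gene's strand with its CpGs in capitals. Col4a1 (chr8:11312777-11313076, minus strand) has 37 CpGs and one of the strongest collagen start-site peaks. Col5a1 (chr2:27886175-27886474, plus strand) has 34 CpGs. Col8a1 (chr16:57754688-57754987, minus strand) has 12 and was higher in Tet2 KO. Col6a5 (chr9:105960594-105960893, minus strand) has 10 and had the lowest adjusted p of all collagen peaks in Idh1 R132H. Col3a1 (chr1:45311288-45311587, plus strand) has 0 CpGs and no peak over its window.
Col4a1: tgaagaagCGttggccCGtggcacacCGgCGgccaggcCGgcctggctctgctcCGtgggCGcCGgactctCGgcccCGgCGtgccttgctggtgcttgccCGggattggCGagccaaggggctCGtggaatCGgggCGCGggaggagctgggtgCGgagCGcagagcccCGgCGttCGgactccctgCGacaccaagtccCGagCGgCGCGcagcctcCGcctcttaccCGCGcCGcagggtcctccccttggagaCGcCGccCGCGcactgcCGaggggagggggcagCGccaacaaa
Col5a1: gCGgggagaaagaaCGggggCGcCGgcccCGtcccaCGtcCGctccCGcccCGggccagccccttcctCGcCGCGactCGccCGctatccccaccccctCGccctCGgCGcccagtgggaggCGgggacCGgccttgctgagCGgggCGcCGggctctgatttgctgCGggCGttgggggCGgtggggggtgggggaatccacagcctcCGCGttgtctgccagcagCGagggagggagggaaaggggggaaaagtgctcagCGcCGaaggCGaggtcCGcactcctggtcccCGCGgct
Col8a1: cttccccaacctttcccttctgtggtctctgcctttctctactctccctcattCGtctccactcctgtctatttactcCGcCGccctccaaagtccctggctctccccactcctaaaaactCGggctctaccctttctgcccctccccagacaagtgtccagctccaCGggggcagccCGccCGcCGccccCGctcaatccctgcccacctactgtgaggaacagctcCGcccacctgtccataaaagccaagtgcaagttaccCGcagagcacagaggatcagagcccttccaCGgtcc
Col6a5: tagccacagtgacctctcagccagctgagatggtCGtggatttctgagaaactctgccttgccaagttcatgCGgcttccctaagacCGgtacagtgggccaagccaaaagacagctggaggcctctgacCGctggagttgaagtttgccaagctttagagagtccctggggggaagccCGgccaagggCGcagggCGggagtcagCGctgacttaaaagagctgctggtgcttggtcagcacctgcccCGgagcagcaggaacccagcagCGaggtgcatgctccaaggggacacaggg
Col3a1: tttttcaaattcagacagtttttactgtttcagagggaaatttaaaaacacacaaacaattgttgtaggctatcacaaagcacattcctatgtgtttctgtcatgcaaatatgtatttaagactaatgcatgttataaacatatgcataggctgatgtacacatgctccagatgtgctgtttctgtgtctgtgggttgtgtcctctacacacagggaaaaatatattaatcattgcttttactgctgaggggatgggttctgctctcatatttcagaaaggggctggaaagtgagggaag

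The windows were also searched on both strands for short motifs of blood regulators. The GATA factor motif AGATAA was in 2 of 38 collagen windows (5.26%) and in 11.2% of all windows. The RUNX motif TGTGGT was in 3 (7.89%, against 16.8%), and the ETS motif GAGGAA in 13 (34.2%, against 28.3%). The AP-1 motif TGANTCA was in 1 (2.63%, against 7.81%), and the C/EBP motif TTGCNNAA in 3 (7.89%, against 10.8%). With counts this small, a few windows would change the shares. A match in these letters is a description and not a bound site.

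**Figure D1:**
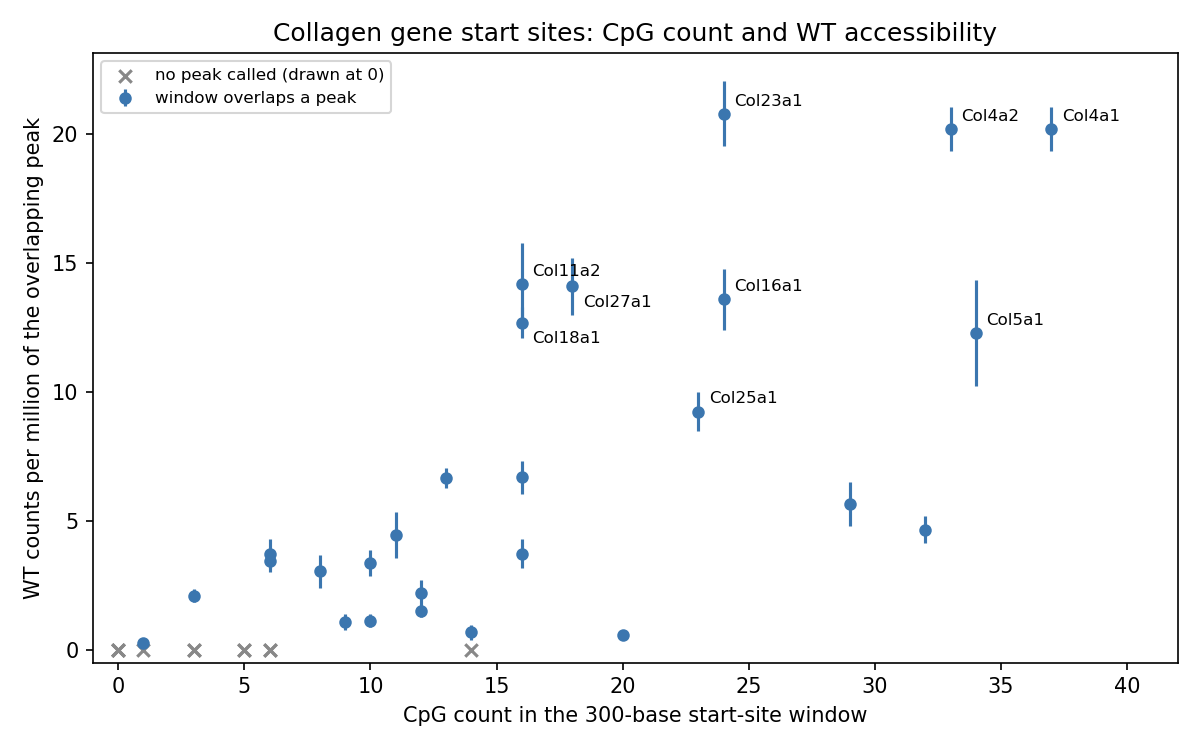
Each point is a collagen start-site window, with its CpG count on the x axis and the WT CPM of the overlapping peak on the y axis (mean and SD, n = 4); crosses at 0 are windows with no peak. All 9 windows with 20 or more CpGs hold a peak, and the strongest, at Col23a1, Col4a1 and Col4a2, lie near 20 CPM.

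Collagen peaks lay mostly inside genes and were mostly weak. Of the 401, 302 (75.3%) had their centre inside the gene, against 56.3% of all peaks, and 60.3% were intronic by the deposited annotation, against 41.9%. The most peaks were at Col4a1 (29), Col13a1 (23), Col4a2 (22), Col15a1 (21) and Col25a1 (21), with a median of 7 per gene. Length alone did not set the number, as Col4a1 spans 114 kb and Col22a1, with 6 peaks, 355 kb. Median accessibility in WT was 1.85 CPM, against 2.58 for all peaks, and 9.48% of collagen peaks exceeded 10 CPM, against 18.5%.

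The strongest collagen peaks were at FACIT, multiplexin and membrane-spanning genes. An intronic peak of Col16a1 (chr4:130074920-130075721), a FACIT collagen, held 37.8, 31.4, 35.6 and 35.0 CPM in the 4 WT libraries. A second peak 1.9 kb upstream of the same gene (chr4:130045498-130046279) averaged 30.4 ± 0.809 CPM (SD, n = 4). Col15a1, a multiplexin of vessel walls, had 26.1 ± 2.99 CPM at chr4:47302462-47303950, and Col23a1, a membrane-spanning collagen, had 23.6 ± 1.11 CPM at chr11:51564951-51565558. The start-site peak shared by Col4a1 and Col4a2, which are transcribed away from each other, held 21.2, 20.5, 20.1 and 19.2 CPM in WT. Its level was 19.5 ± 1.21 CPM in Idh1 R132H, 20.8 ± 2.02 in Idh2 R140Q, 22.6 ± 1.73 in Tet2 KO (n = 4 each; adjusted p = 0.224 against WT, edgeR's quasi-likelihood test) and 27.3 ± 1.3 in Idh2 R172K. All 4 Idh2 R172K libraries, at 26.0 to 28.7 CPM, lay above every library of the other genotypes, which ended at 24.0. Summed over all 401 peaks the genotypes stood close together, at 1513 to 1531 CPM in WT, 1495 to 1523 in Idh1 R132H, 1522 to 1562 in Idh2 R140Q, 1519 to 1552 in Idh2 R172K and 1522 to 1538 in Tet2 KO.

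Without Tet2, a small number of collagen peaks changed in both directions. A distal peak of Col6a3 (type VI) and the start-site peak of Col8a1 rose, and peaks within Col19a1, Col5a1 and Col27a1 fell. Of 397 collagen peaks tested, 6 were higher and 11 lower in Tet2 KO than in WT at an adjusted p under 0.05 (edgeR's quasi-likelihood test, adjusted over all 123908 peaks tested). That is 17 of 397, or 4.28%, against 3.1% of all peaks, 0.785% of which were higher and 2.32% lower, so the collagen share was near the background. Libraries did not overlap WT at 24 peaks on the high side and 25 on the low side (6.05% and 6.3%, against 3.46% and 5.12% of all peaks). The median log2 fold change was 0.04 over collagen peaks and 0.01 over all. These counts changed when 1 library was left out. Without WT replicates 1, 2, 3 and 4 in turn, 4, 7, 13 and 12 collagen peaks passed. Without Tet2 KO replicates 1, 2, 3 and 4 in turn, 10, 13, 5 and 7 passed. Calls over all peaks, 973 higher and 2871 lower with every library, rose to 1034 and 2906 without WT replicate 3 and to 1085 and 3232 without Tet2 KO replicate 2. They fell in the other fits, as to 433 and 1937 without WT replicate 1 and to 479 and 1637 without Tet2 KO replicate 3. DESeq2 called 8, all among the 17.

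Col6a3 encodes a chain of type VI collagen, and the changed peak (chr1:90697044-90697506) is intergenic, 69.6 kb beyond the gene. It held 1.48, 1.47, 1.58 and 0.656 CPM in WT and 2.66, 2.78, 2.74 and 2.29 CPM in Tet2 KO. The Tet2 KO libraries all lay above the WT libraries, of which replicate 4 was the low one. The log2 fold change was 1.03 ± 0.21 (SE; adjusted p = 0.00221, edgeR), and 0.79 without WT replicate 4 (adjusted p = 0.0255). Tet2 KO also exceeded Idh1 R132H by 1.24 ± 0.21 on the log2 scale (adjusted p = 0.000288, edgeR) and Idh2 R140Q by 1.14 ± 0.21 (adjusted p = 0.00294, edgeR). Idh1 R132H libraries spanned 0.725 to 1.31 CPM and Idh2 R140Q libraries 1.01 to 1.41. In Idh2 R172K the same peak was almost closed, with 0.115, 0, 0.259 and 0.338 CPM, so Idh2 R172K and Tet2 KO stood on opposite sides of WT. With the libraries low at Xist alone, the Tet2 KO difference was 0.84 (adjusted p = 0.0561, edgeR). The other 4 peaks assigned to Col6a3 averaged 0.467 to 0.714 CPM in WT and did not pass the test in Tet2 KO.

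Col8a1 encodes a short-chain network collagen of vessel walls and the cornea. Its start-site peak (chr16:57754393-57755593), over the window printed above, held 1.21, 1.43, 1.64 and 1.76 CPM in WT and 2.71, 2.24, 2.28 and 2.25 CPM in Tet2 KO. All Tet2 KO libraries were above all WT libraries. The log2 fold change was 0.66 ± 0.17 (adjusted p = 0.0187, edgeR), and against Idh1 R132H it was 0.67 (adjusted p = 0.0158, edgeR). Idh2 R140Q averaged 1.67 ± 0.138 CPM, and the Tet2 KO difference from it did not pass the test (0.52, adjusted p = 0.188, edgeR). Idh2 R172K libraries held 2.54, 3.9, 2.59 and 3.15 CPM, also above every WT library. The call was lost in 6 of 16 alternative fits: without WT replicate 1 (0.55, adjusted p = 0.11), WT replicate 2 (0.63, adjusted p = 0.0651) or Tet2 KO replicate 1 (0.59, adjusted p = 0.076), in the libraries low (0.84, adjusted p = 0.0542) or high at Xist (0.5, adjusted p = 0.259), all by edgeR, and by DESeq2 (adjusted p = 0.0502).

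The other 4 peaks that rose were at genes of different structure. Col18a1, the multiplexin from which endostatin is cut, rose by 0.52 on the log2 scale at a peak 16.7 kb upstream (chr10:77182783-77183637; 3.11 ± 0.336 CPM in WT, 4.49 ± 0.504 in Tet2 KO, n = 4 each; adjusted p = 0.022, edgeR). Col17a1, the hemidesmosome collagen of epithelia, rose by 0.42 in an intron (chr19:47658827-47659562; adjusted p = 0.0324, edgeR). Col4a5, an X-linked type IV chain, rose by 0.67 (chrX:141631811-141632189; adjusted p = 0.0337, edgeR), and Col26a1 rose by 0.29 (chr5:136863821-136864920; adjusted p = 0.0419, edgeR). At these 4 peaks the Tet2 KO libraries did not overlap the WT libraries. Each of the 4 calls was lost in 6 to 9 of the 16 alternative fits.

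Col19a1 had the most peaks that fell. This gene encodes a FACIT collagen of basement membrane zones, and 3 of its 9 peaks were lower in Tet2 KO. The first lies in an intron 14.6 kb from the start (chr1:24572509-24573067) and held 8.72, 9.0, 8.61 and 8.49 CPM in WT and 6.54, 6.43, 5.1 and 5.45 CPM in Tet2 KO. No Tet2 KO library reached the lowest WT library. The log2 fold change was -0.58 ± 0.1 (adjusted p = 0.000202, edgeR), -0.5 against Idh1 R132H (adjusted p = 0.00146, edgeR) and -0.57 against Idh2 R140Q (adjusted p = 0.000768, edgeR), and the call against WT was lost in 1 of 16 alternative fits, that of the libraries low at Xist (-0.42, adjusted p = 0.086, edgeR). The start-site peak (chr1:24586276-24587710) fell by 0.42 (adjusted p = 0.0358, edgeR), from 6.69 ± 0.649 to 5.0 ± 0.662 CPM with 1 library overlapping WT, and a peak 33.7 kb from the start (chr1:24553505-24553964) fell by 0.63 (adjusted p = 0.0169, edgeR). The start-site call was lost in 9 of 16 alternative fits, DESeq2 among them (adjusted p = 0.0563), and the call at 33.7 kb in 5. In Idh2 R172K the intronic peak held 3.62, 4.09, 4.14 and 4.67 CPM, below every library of every other genotype. Over the 9 Col19a1 peaks, 8 were called lower in Idh2 R172K, and the ninth, 284.5 kb from the start, averaged 1.53 ± 0.443 CPM there and 1.56 ± 0.295 CPM in WT.

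Col5a1 encodes a type V chain that limits the width of collagen fibres. Its exonic peak 35.7 kb from the start (chr2:27921686-27922540) held 15.5, 14.4, 16.3 and 14.4 CPM in WT and 12.8, 12.8, 10.1 and 10.4 CPM in Tet2 KO. Tet2 KO was lower in every library, with a log2 fold change of -0.4 ± 0.09 (adjusted p = 0.00765, edgeR), and the call was lost in 2 of 16 alternative fits, without Tet2 KO replicate 3 (-0.34, adjusted p = 0.0611, edgeR) and in the libraries low at Xist (-0.31, adjusted p = 0.125, edgeR). A second peak at 53.2 kb (chr2:27939326-27939852) held 6.03, 4.42, 7.16 and 4.88 CPM in WT and 4.15, 2.97, 4.09 and 3.61 CPM in Tet2 KO (log2 fold change -0.57 ± 0.14, adjusted p = 0.0107, edgeR), again without overlap. Without WT replicate 1 or WT replicate 3 its adjusted p was 0.0568 or 0.0565 (edgeR), and in the libraries high at Xist the log2 fold change was -0.27 (adjusted p = 0.424, edgeR). The other 16 Col5a1 peaks did not pass the test in Tet2 KO.

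The remaining 6 peaks that fell were spread over 5 genes. Col27a1, a fibrillar collagen of cartilage, fell by 1.28 on the log2 scale at a faint intronic peak (chr4:63240677-63240949; 0.726 ± 0.0435 CPM in WT, 0.282 ± 0.191 in Tet2 KO; adjusted p = 0.0391, edgeR) and by 0.38 at 68.2 kb from the start (chr4:63283380-63283796; adjusted p = 0.0453, edgeR). Col13a1, a membrane-spanning collagen, fell by 0.84 at a peak 18.1 kb outside the gene (adjusted p = 0.031, edgeR), where 1 Tet2 KO library, at 1.51 CPM, overlapped the WT libraries, as did 1 at the Col25a1 peak below. Col4a4, a type IV chain of the kidney filter, fell by 0.85 (adjusted p = 0.0392, edgeR), Col25a1, a membrane-spanning collagen of neurons, by 0.31 in an intron (adjusted p = 0.0164, edgeR) and Col5a3, another type V chain, by 0.47 (adjusted p = 0.0472, edgeR). Calls at these 6 peaks were lost in 7 to 10 of the 16 alternative fits.

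**Figure D2:**
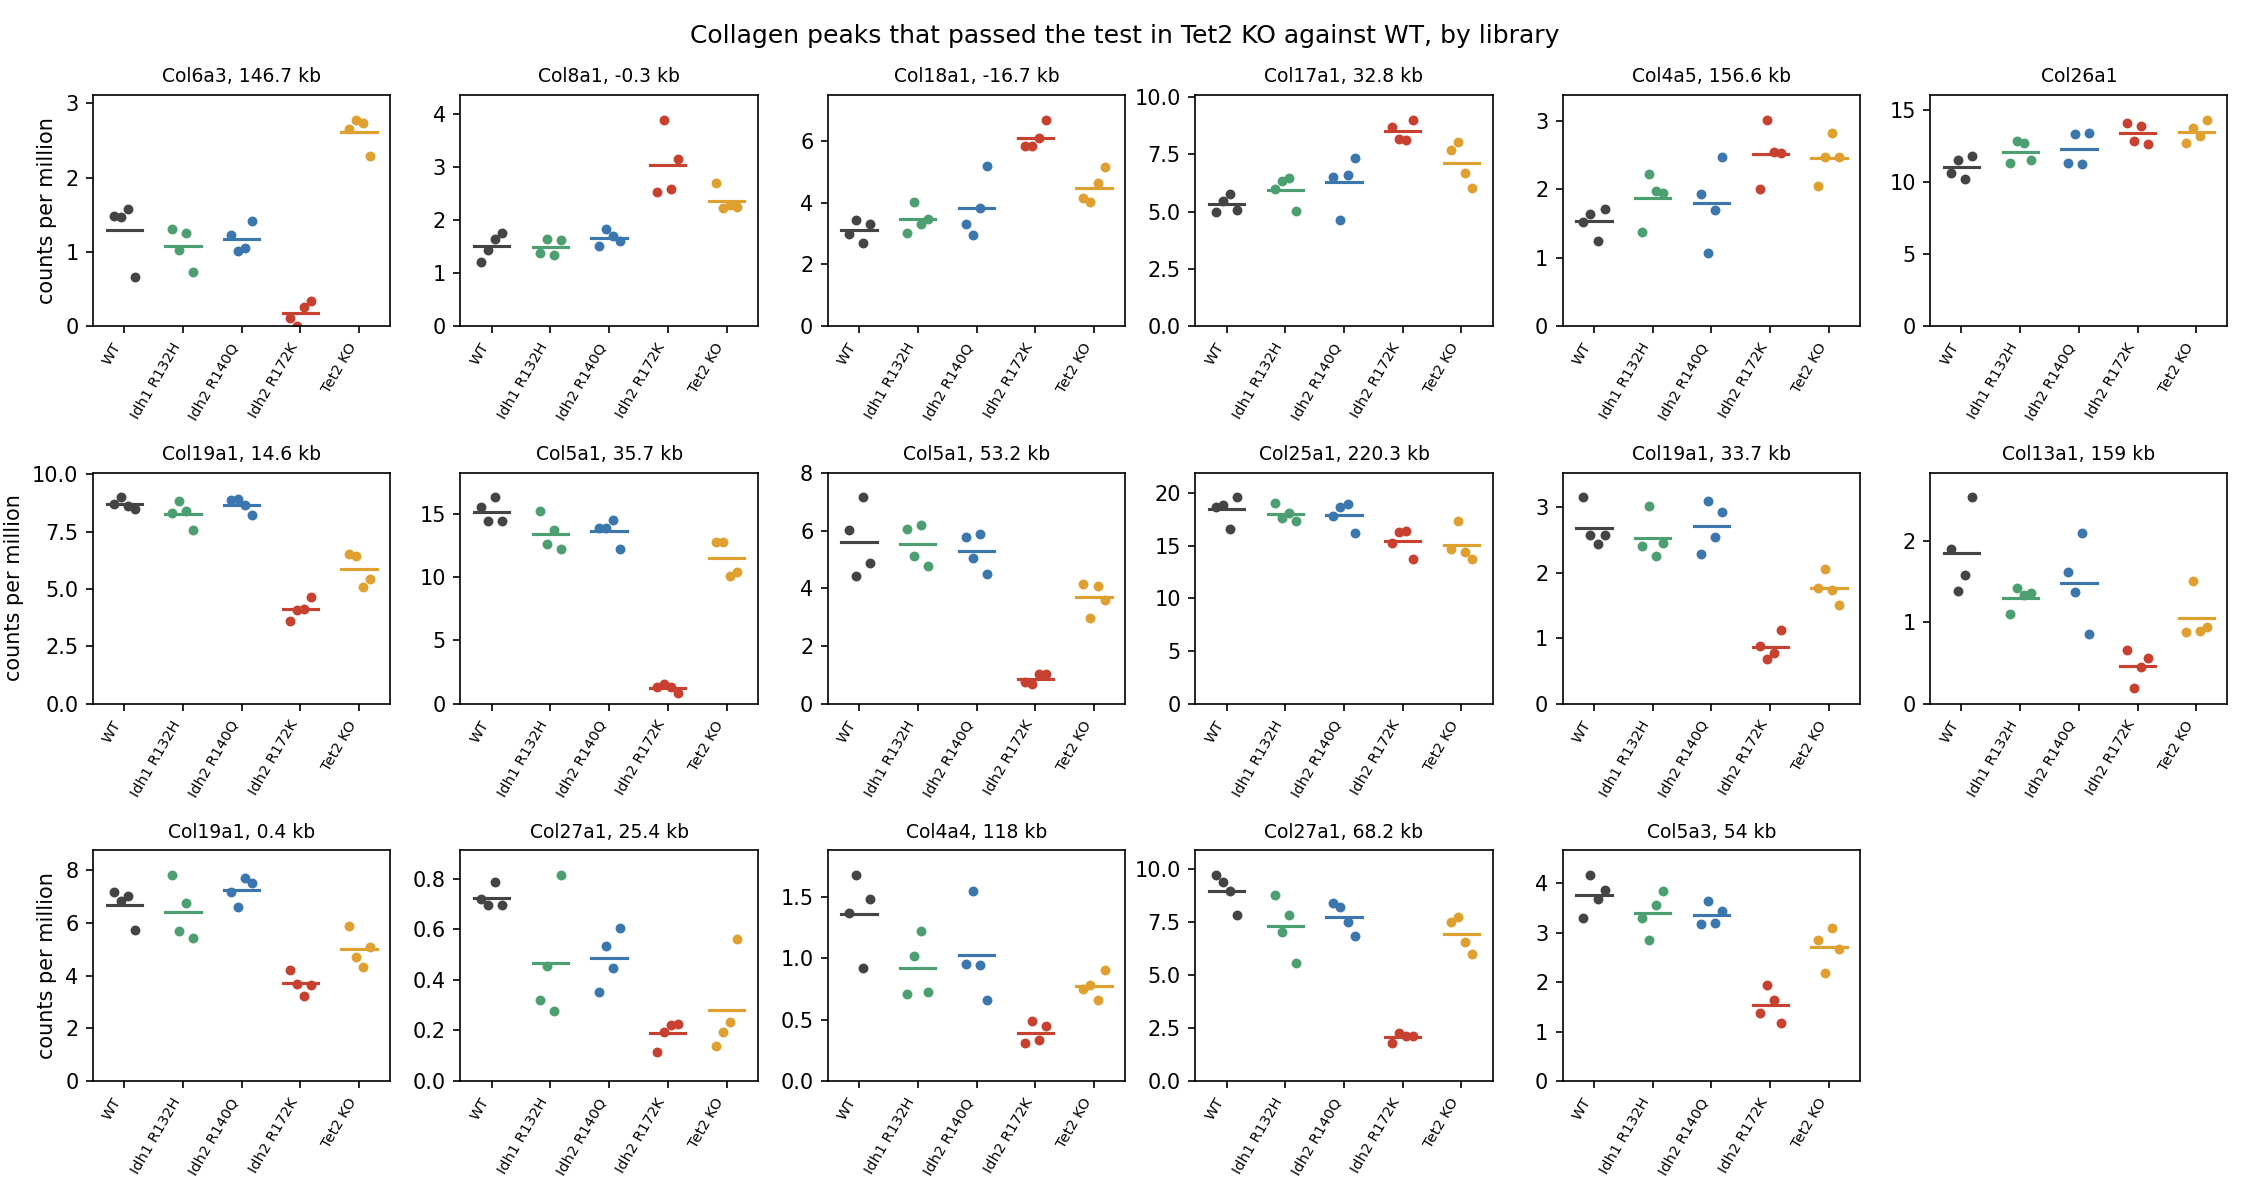
CPM in each library (points) and the genotype mean (bars) for the 17 collagen peaks that passed the test in Tet2 KO against WT, each titled by its gene and the distance of its centre from the RefSeq start site (no window for Col26a1). In the Col6a3 panel Tet2 KO is highest, at 2.29 to 2.78 CPM, and Idh2 R172K lowest, at 0 to 0.338 CPM.

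By structure, calls in Tet2 KO stood against 0.785% of all peaks higher and 2.32% lower. Fibrillar genes had 0 higher and 5 lower calls among 87 peaks tested (5.75% lower), and FACIT genes 0 and 3 among 59 (5.08% lower), all 3 at Col19a1. Short-chain and type VI genes had 1 higher call each among 19 peaks each, type IV had 1 higher and 1 lower among 66, membrane-spanning genes 1 higher and 2 lower among 71, and multiplexins 1 higher among 39. Col26a1 and Col28a1, which fit none of these classes, had 1 higher among 34. The median log2 fold changes of these groups lay between 0.01 and 0.12. Type VII, with 3 peaks tested, had 0 calls and a median of -0.06.

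Compared with the Idh mutants, Tet2 KO gave 7 higher and 7 lower collagen peaks against Idh1 R132H (3.53% in all, against 3.59% of all peaks, of which 1.24% were higher and 2.36% lower) and 2 higher and 2 lower against Idh2 R140Q (1.01%, against 0.641%, with 0.145% higher and 0.496% lower). The largest difference from Idh1 R132H was at the Col6a3 peak described above. A peak near the Col8a1 start that was not called against WT (starting at chr16:57753442) was higher by 0.87 ± 0.21 than in Idh1 R132H (adjusted p = 0.0126, edgeR). A peak assigned to Col1a2, a type I chain of bone and skin, lies 129.9 kb outside the gene (chr6:4375590-4375838). The deposited annotation places another start site nearer to it. That peak had 0.934, 0.974, 1.08 and 0.901 CPM in Tet2 KO and 0.423, 0.297, 0.549 and 0.454 CPM in Idh2 R140Q (log2 fold change 1.15 ± 0.29, adjusted p = 0.0484, edgeR). Its WT level, 0.607 ± 0.0684 CPM, lay between them.

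Neither Idh1 R132H nor Idh2 R140Q changed a collagen peak by edgeR's test. Against WT, 0 of 397 passed in each (0.0274% and 0.0153% of all peaks passed). DESeq2 also called 0 in each. At an unadjusted p under 0.05 there were 21 collagen peaks in Idh1 R132H (5.29%, against 5.07% of all) and 19 in Idh2 R140Q (4.79%, against 5.5%). The nearest to the threshold was the start-site peak of Col6a5, a type VI chain (chr9:105960536-105960894). It held 1.14, 0.941, 1.51 and 0.943 CPM in WT and 0.425, 0.456, 0.591 and 0.227 CPM in Idh1 R132H, with no overlap between the groups. The log2 fold change was -1.36 ± 0.28 (adjusted p = 0.059, edgeR), and it passed with the replicate number as a block (-1.38, adjusted p = 0.0161) and with the Xist set as a term (-1.4, adjusted p = 0.015). Levels at that peak were 0.722 ± 0.18 CPM in Idh2 R140Q, 0.782 ± 0.174 in Tet2 KO and 0.152 ± 0.0405 in Idh2 R172K. In Idh2 R140Q the lowest adjusted p was 0.305 (edgeR), at a Col27a1 exon peak (chr4:63224313-63224535) with 0.998 ± 0.0921 CPM in WT and 0.419 ± 0.164 CPM in Idh2 R140Q.

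In Idh2 R172K, calls at collagen peaks went in both directions, at a share near that of all peaks. Of 397 peaks, 102 were called higher and 118 lower than WT (55.4%, against 53.0% of all peaks, 25.1% of which were higher and 27.9% lower). Beyond a 2-fold difference there were 10 higher and 62 lower (2.52% and 15.6%, against 3.63% and 13.2%). Both directions occurred within 20 genes, 11 genes had lower calls alone, 7 higher calls alone and 5 none. The balance depended on scaling, over all peaks as well, where TMM gave 31075 higher and 34598 lower of 123908. Cyclic loess offsets gave 123 higher and 103 lower collagen peaks, and 31858 and 31677 over all peaks. Library size alone gave 75 and 128 collagen peaks, and 23277 and 38486 over all peaks.

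**Figure D3:**
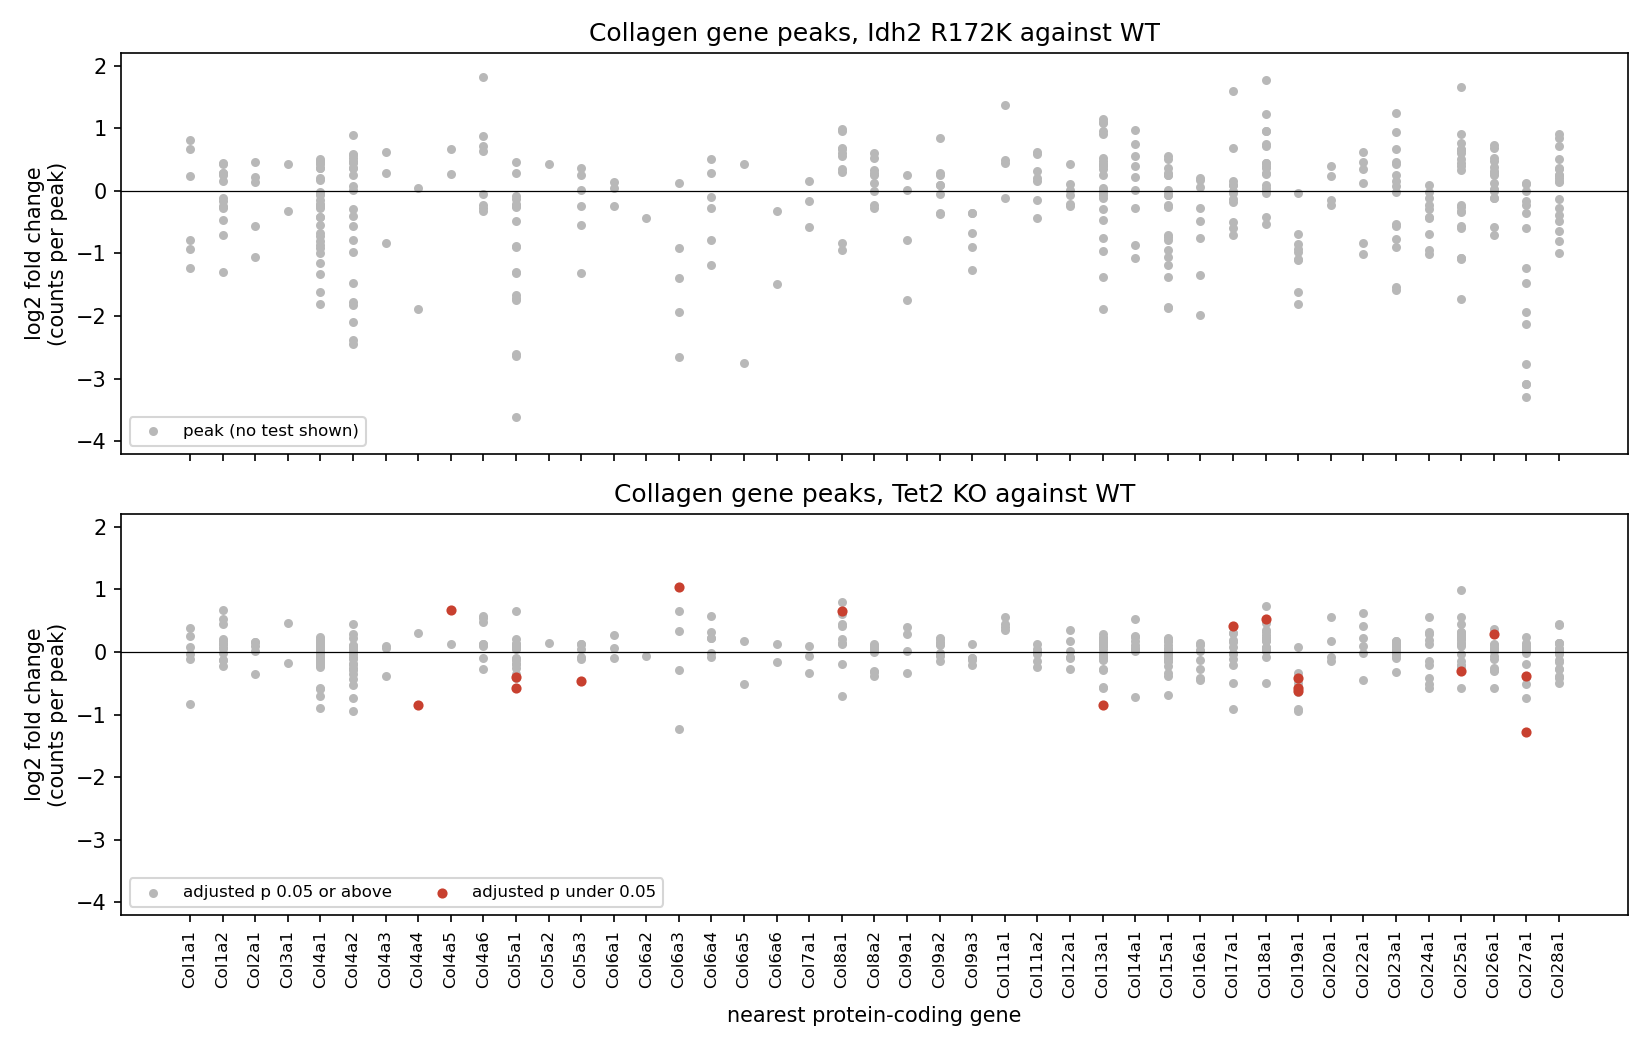
Each point is a tested collagen peak, placed by gene on the x axis, with its log2 fold change against WT for Idh2 R172K (top, a description with no test shown) and Tet2 KO (bottom), where red marks an adjusted p under 0.05. Idh2 R172K spans -3.61 to 1.81 and Tet2 KO -1.28 to 1.03.

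The deepest losses in Idh2 R172K were at the fibrillar genes Col5a1 and Col27a1, followed by the type VI genes Col6a5 (log2 fold change -2.75 ± 0.36) and Col6a3 (-2.66 ± 0.36). The Col5a1 peak at 35.7 kb held 1.27, 1.56, 1.33 and 0.845 CPM in Idh2 R172K, 8.26% of its WT level (log2 fold change -3.61 ± 0.13). The Col5a1 peak at 53.2 kb, with other Col5a1 peaks between it and the first, held 0.731, 0.682, 1.04 and 1.01 CPM (-2.64 ± 0.18). Both groups of Idh2 R172K values lie far below the lowest WT library. The Col5a1 start-site peak (chr2:27885715-27887385), over the CpG-rich window printed above, averaged 12.3 ± 2.05 CPM in WT and 14.8 ± 2.27 CPM in Idh2 R172K, with overlapping libraries. Of the 18 Col5a1 peaks, 10 were called lower, 1 higher and the others lay between 0.663 and 2.02 CPM in Idh2 R172K.

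At Col27a1 too, Idh2 R172K was far lower at part of the interior and not at the start site. A run of 4 intragenic peaks from 61.8 to 73.5 kb averaged 2.25, 13.2, 8.96 and 7.25 CPM in WT and 0.275, 1.29, 2.08 and 1.1 CPM in Idh2 R172K. At the strongest of them (chr4:63281592-63282313) the libraries held 13.3, 13.6, 13.3 and 12.6 CPM in WT and 1.27, 0.877, 1.33 and 1.69 CPM in Idh2 R172K (log2 fold change -3.3 ± 0.13). In Tet2 KO that peak averaged 11.6 ± 0.948 CPM. The next peak downstream, at 87.4 kb, averaged 17.1 ± 0.915 CPM in WT and 13.3 ± 1.18 in Idh2 R172K, and the start-site peak 14.1 ± 1.09 and 15.5 ± 0.854.

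**Figure D4:**
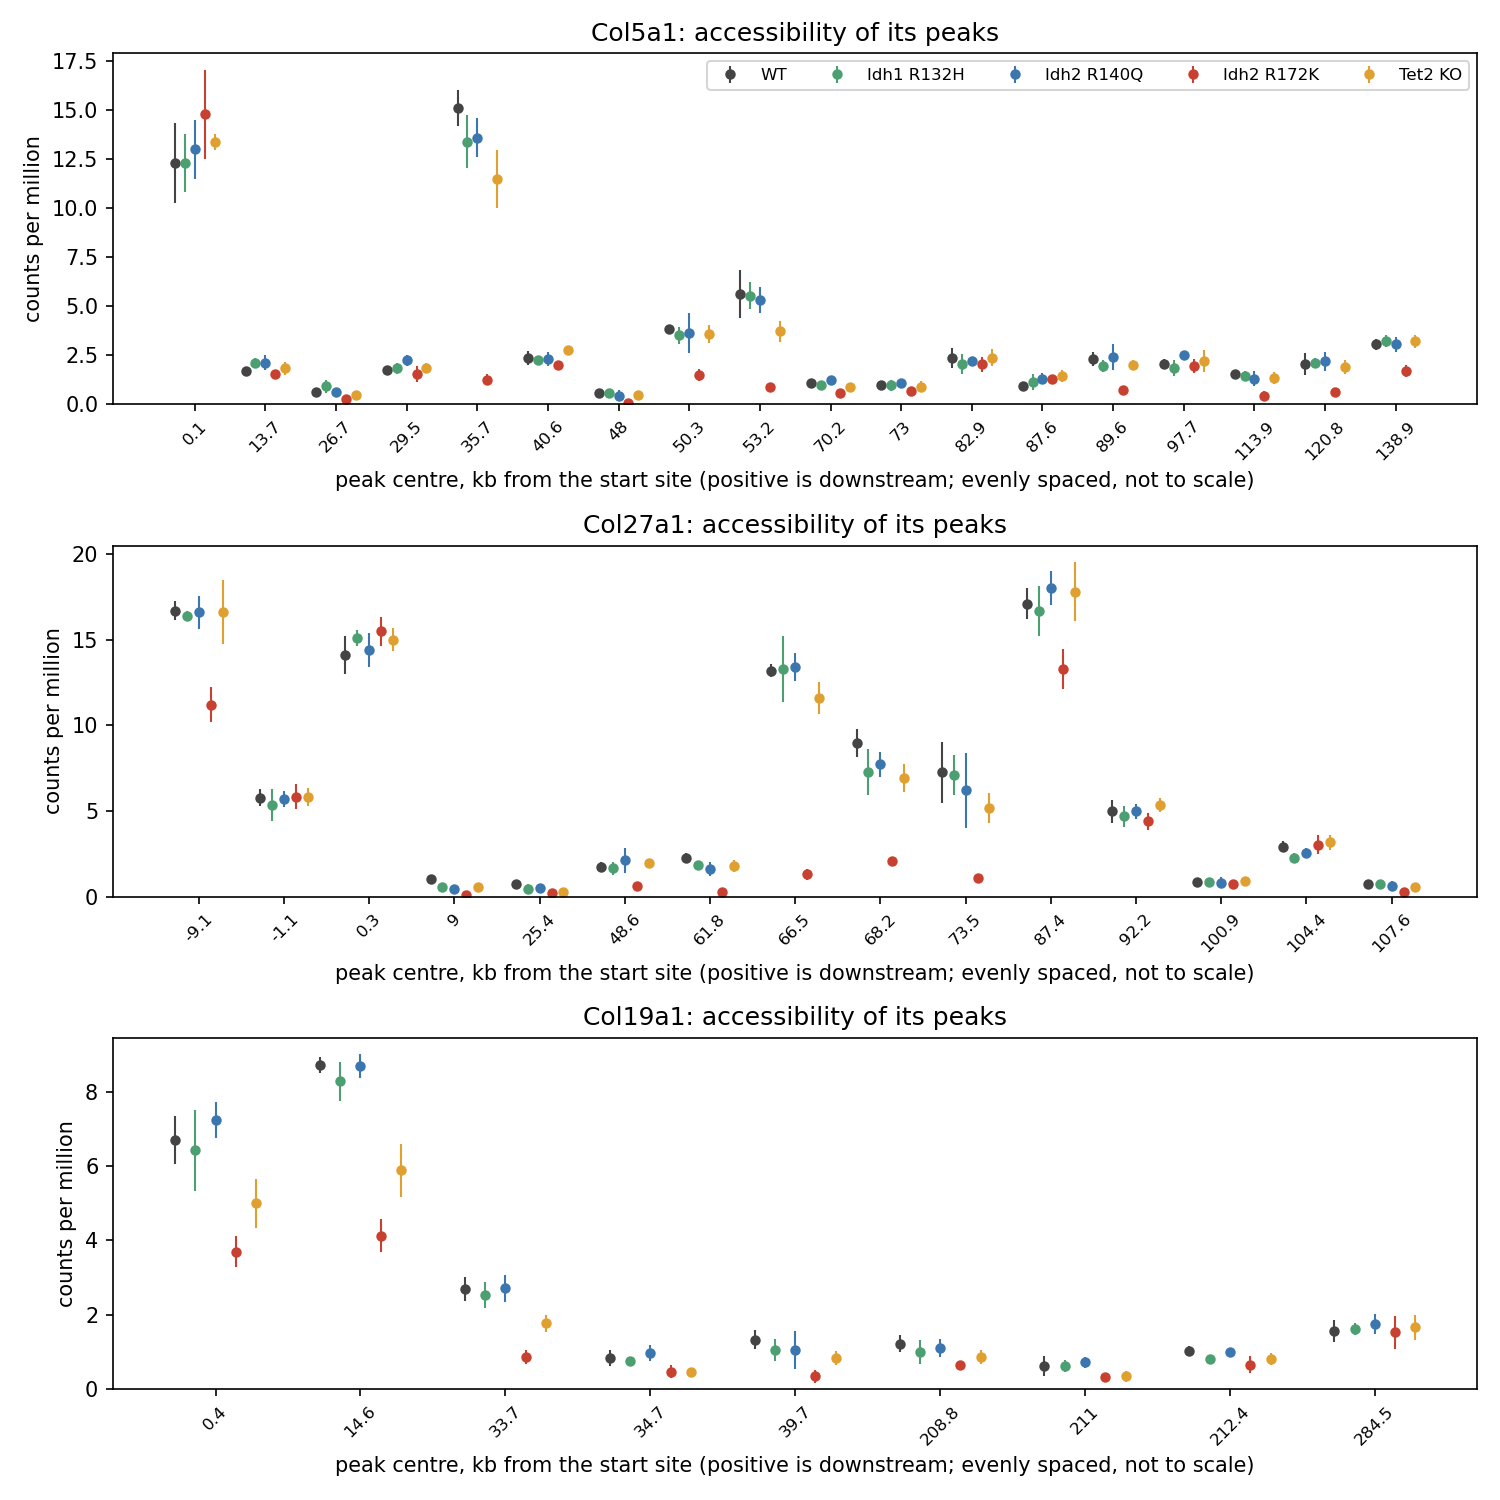
Mean CPM with SD (n = 4 libraries) of every peak assigned to Col5a1, Col27a1 and Col19a1 in 5 genotypes, ordered by distance from the RefSeq start site. Idh2 R172K is far below the others at 35.7 kb in Col5a1 and from 61.8 to 73.5 kb in Col27a1, but not at 0.1 and 0.3 kb, and in Col19a1 it is lower at the start as well.

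Other losses in Idh2 R172K included a Col4a2 intron (chr8:11352402-11352936, 3.16 ± 0.193 CPM in WT, 0.555 ± 0.151 in Idh2 R172K). Another was a peak inside Col16a1, 33.8 kb from its start (chr4:130081182-130082176, 9.98 ± 1.62 and 2.44 ± 0.53). The deposited annotation classes it as a transcription end, though the RefSeq gene runs on to 130099277. At Col6a3, 4 of 5 peaks were called lower. One of these, at chr1:90772547-90772844, rests on WT replicate 4, at 1.85 CPM, while the other WT libraries held 0.266 to 0.46 and Idh2 R172K 0.0769 to 0.296. By structure, calls stood beside 25.1% higher and 27.9% lower over all peaks. Fibrillar genes had 16 higher and 34 lower calls of 87 (18.4% and 39.1%), with 10 of the lower calls at Col5a1 and 10 at Col27a1. FACIT genes had 7 and 20 of 59 (11.9% and 33.9%), with 8 of the lower calls at Col19a1. Type VI genes had 1 and 8 of 19 (5.26% and 42.1%), with 4 of the lower calls at Col6a3. These class counts thus lean on single genes, Col5a1 and Col6a3 of the selection among them.

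The short-chain genes had 9 higher and 2 lower calls of 19 (47.4% and 10.5%) and the membrane-spanning genes 26 and 17 of 71 (36.6% and 23.9%). The multiplexins had 15 and 10 of 39 (11 and 11 with library size alone), and type IV 19 and 22 of 66 (21 and 18 with loess offsets). Col18a1 had 10 higher and 0 lower of 18 peaks, and its summed level was 50.7 ± 2.14 CPM in WT and 65.1 ± 4.85 in Idh2 R172K. Col4a6, an X-linked type IV chain, held 0.91, 0.818, 1.25 and 0.82 CPM in WT and 3.19, 1.95, 2.96 and 4.56 CPM in Idh2 R172K at an intronic peak (chrX:141235481-141236086), the largest gain (log2 fold change 1.81 ± 0.23). Col23a1 was above WT at its start site (chr11:51289454-51290934), from 20.8 ± 1.26 to 32.7 ± 4.1 CPM, and Col13a1 in an intron (chr10:61920446-61921682), from 3.45 ± 0.2 to 7.61 ± 0.47 CPM.

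The machinery around collagen was surveyed in 3 lists. Genes that fold and modify collagen had 1 higher and 3 lower calls among 208 peaks in Tet2 KO (1.92%, against 3.1% of all peaks). All 3 lower calls were at P4ha2, a prolyl hydroxylase subunit. The one of lowest p fell by 0.94 in an intron (4.08 ± 0.806 CPM in WT, 2.16 ± 0.185 in Tet2 KO, adjusted p = 0.00591, edgeR). Plod2, a lysyl hydroxylase, rose by 0.26 (adjusted p = 0.0345, edgeR). Receptors had 1 higher and 2 lower calls among 128 (2.34%): Itga2, a collagen-binding integrin chain, rose by 0.33 (adjusted p = 0.0319, edgeR), while Itga1, its relative, fell by 0.5 (adjusted p = 0.018, edgeR) and Lair1, an inhibitory receptor, fell by 1.02 (adjusted p = 0.0227, edgeR). Genes of collagen breakdown had 3 higher and 2 lower calls among 52 (9.62%, with 5.77% higher against 0.785% of all peaks). The higher calls were at Mmp16 and Mmp9 alone and the lower ones at Mmp2 alone, so the share rests on few genes. Mmp16, a membrane-type metalloproteinase, rose by 0.8 at its promoter (3.39 ± 0.794 CPM in WT, 5.91 ± 0.326 in Tet2 KO, adjusted p = 0.000393, edgeR). Mmp9 rose by 0.32 (adjusted p = 0.0171, edgeR) and Mmp2 fell by 0.35 (adjusted p = 0.0384, edgeR). Without 1 library the counts were 0 to 1 higher and 1 to 4 lower in the first list, 0 to 2 and 0 to 3 in the second, and 2 to 4 and 0 to 2 in the third. In these lists 0 peaks passed in Idh1 R132H or Idh2 R140Q. Idh2 R172K had 50 higher and 61 lower calls in the first list, 35 and 38 in the second and 19 and 9 in the third (53.4%, 57.0% and 53.8%, against 53.0% of all peaks). Its largest losses by log2 fold change in these lists were at Ddr2, a collagen-sensing receptor kinase (0.957 ± 0.503 CPM in WT, 0.0522 ± 0.0482 in Idh2 R172K; -3.74 ± 0.52), and at the P4ha2 peak above (0.784 ± 0.329 CPM; -2.49 ± 0.25), and its largest gain at Plod2 (2.22 ± 0.23; 0.787 ± 0.293 and 3.59 ± 0.35 CPM).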

How the data were processed

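The authors deposited whole-number counts per peak for 20 ATAC-seq libraries over 125343 peaks, and a table of peak classes with the distance to a start site. The submitters' processing notes name featureCounts, MACS2, BWA, Trim Galore, SAMtools and Picard, and the build mm10. Settings, any shift of reads to the insertion site, and whether a count is a read or a fragment were not given in the sources used here. A peak took the protein-coding RefSeq gene (GRCm38.p6, 21887 genes) that held its centre, the shortest if several, or else the nearest. The deposited Ensembl identifiers carry no symbols.

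Counts were fitted with edgeR 4.0.16 (TMM, filterByExpr, robust quasi-likelihood, all 5 genotypes in one model), with adjustment by Benjamini-Hochberg over 123908 peaks and a threshold of 0.05. The filter removed 1435 peaks, 4 of them collagen peaks, at Col17a1, Col24a1, Col4a6 and Col7a1. CPM used TMM-scaled library sizes, and standard errors were taken from the fold change and F statistic. The method was tested on simulated data with independent libraries and with changes in Tet2 KO alone. Changes as widespread as in Idh2 R172K and effects shared by replicate number were not covered. Alternatives used limma 3.58.1 (cyclic loess) and DESeq2 1.42.0 in R 4.3.3.

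The members and lists were chosen with earlier results of these data known. Peaks were named by rule: every Col5a1 and Col6a3 peak, the 12 strongest in WT and the 6 strongest of promoter class, at most 12 called peaks per direction by p against WT, for Idh2 R172K the largest change of each of 12 genes per direction among called peaks whose libraries lay beyond all WT libraries, and at most 3 called genes per list and direction. The Col6a5, Col27a1 and Col1a2 peaks of the Idh comparisons, the Col8a1 peak near the start and the profile of Col27a1 and Col19a1 were chosen after their values were seen. Replicates are pools of separate mice, and comparisons against WT share its 4 libraries.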

Additional observations from a re-analysis of the deposited data

Results flagged for a closer look

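Among 71 peaks checked in 5 genotypes (355 groups of 4), 19 libraries stood apart from the other libraries of their genotype by more than Dixon's critical value for 4 samples. Chance flags about 1 in 20 groups. All values are CPM, each followed by the range of the other libraries of that genotype.

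At Col6a3, WT replicate 4 was low at the peak starting at 90697044 (0.656, others 1.47 to 1.58) and high at 90772547 (1.85, others 0.266 to 0.46). At Col5a1, WT replicate 1 (1.78, others 2.46 to 2.5) and Idh2 R140Q replicate 2 (1.43, others 2.62 to 2.86) were low at 27975837, and Idh2 R140Q replicate 2 was low at 27969084 (1.96, others 2.27 to 2.3). Idh2 R172K replicate 3 was high at 27926858 (2.14, others 1.91 to 1.95) and replicate 4 at 27983870 (2.48, others 1.73 to 1.77).

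Tet2 KO replicate 1 was high at the Col8a1 start site (2.71, others 2.24 to 2.28), replicate 2 was high at Col13a1 (1.51, others 0.887 to 0.939) and low at Col16a1 (4.97, others 8.19 to 8.57), and replicate 4 was high at Col25a1 (12.1, others 10.7 to 10.9). Idh2 R140Q replicate 2 was low at Col16a1 (27.6, others 32.8 to 33.2), and replicate 1 was high at Col23a1 (22.9, others 21.0 to 21.3) and Col6a5 (0.988, others 0.594 to 0.656). Idh1 R132H replicate 1 was high at Col13a1 (3.83, others 3.47 to 3.49) and at Col19a1 (1.49, others 0.854 to 0.951), and replicate 2 at Col4a1 (3.47, others 2.49 to 2.59). WT replicate 4 was high at Col15a1 (1.89, others 1.45 to 1.52) and WT replicate 3 at Col19a1 (1.71, others 1.18 to 1.23).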

How the results depend on the processing

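Tet2 KO calls against WT (6 higher, 11 lower) became 1 and 2 with the libraries low at Xist, 1 and 4 with those high at Xist, 3 and 5 with DESeq2, and 22 lower with a replicate block. With peaks inside genes alone there were 3 higher. Over all peaks, calls were 973 higher and 2871 lower. These became 2279 and 1356 with the libraries low at Xist and 469 and 2258 with those high at Xist. DESeq2 gave 568 and 2196 over all peaks, and the replicate block 1892 and 4742. Leaving out a library gave 1 to 5 higher and 3 to 10 lower. Fold changes of the 17 called peaks kept their direction in all 16 alternative fits. These fits reuse the libraries on which the peaks were called, so a reversal was unlikely from the start. The calls themselves were lost in 1 to 10 of the 16 fits, depending on the peak. In Idh1 R132H, 1 peak (Col6a5) became lower with the replicate block and with the Xist set as a term, an alternative added after seeing the data. Lower calls over all peaks in Idh1 R132H went from 26 to 79 with the block and 42 with the Xist term. In Idh1 R132H and Idh2 R140Q every fit without 1 library gave 0 calls.

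Tet2 KO against Idh1 R132H (7 and 7) gave 13 higher and 17 lower with the replicate block, 3 and 4 with DESeq2, 4 higher with peaks inside genes, 4 lower with library size alone, and 1 to 10 higher and 2 to 10 lower without 1 library. Over all peaks, 1531 higher and 2922 lower became 3162 and 5678 with the block, 875 and 2287 with DESeq2 and 1750 and 2528 with library size alone. Against Idh2 R140Q (2 and 2) there was 1 higher with DESeq2 and 0 higher with peaks inside genes, 6 lower with the block and 5 lower with the Xist term, and 1 to 2 higher and 1 to 4 lower without 1 library. Over all peaks, 180 higher and 614 lower became 122 and 546 with DESeq2, 412 and 1123 with the block and 261 and 829 with the Xist term. Idh2 R172K counts were 60 higher and 77 lower in libraries high at Xist, and 86 to 101 and 108 to 117 without 1 library. Over all peaks, the libraries high at Xist gave 19587 higher and 23388 lower, against 31075 and 34598 with every library. The cause was not tested, apart from fewer libraries or peaks where these were left out.

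Replicate numbers share no stated source: the correlation of same-numbered libraries had a median of 0.101 (-0.0942 to 0.289), over 0.1 in 21 of 40 pairs, and 15 of 20 libraries correlated best with their own number, as a hint from the data and not the design. All 17 Tet2 KO calls were among the 31 under the block. Assignment by the deposited Ensembl identifiers was not run, since the reference used pairs none with symbols. Counting error limits peaks under 1 CPM, 24.4% of collagen peaks.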
